A study of Rattus norvegicus with 35 samples.

Results

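Growth hormone acts on the liver through its receptor and the transcription factor STAT5, and 8 genes of that axis are described here across the livers of rats given a flame retardant. They are Ghr, the receptor, Socs2, Cish and Socs3, feedback inhibitors of the receptor's signal, Igf1 and Igfals, secreted targets, and Onecut1 and Bcl6, transcription factors. They are 8 of 14217 genes with a probe set of 1 symbol on the array, and they hold 13 of the 31042 probe sets tested. Each gene was read from its probe set with the highest mean, which was 1373803_a_at for Ghr, 1369577_at for Socs2, 1388233_at for Cish, 1369584_at for Socs3, 1370333_a_at for Igf1, 1387816_at for Igfals, 1371034_at for Onecut1 and 1379368_at for Bcl6. The genes were chosen by their known roles and selected on measured values, the spread of their log2 levels between these rats and the correlations among them. Spread and correlations are therefore given as descriptions without tests, while the dose of the compound had no part in the choice and was tested.

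The compound was BTBPE, 1,2-bis(2,4,6-tribromophenoxy)ethane, a brominated flame retardant. Male Harlan Sprague Dawley rats, 7 weeks old when dosing began, had 5 daily gavages of corn oil alone (vehicle, 6 rats) or of BTBPE in corn oil at 0.07 mg/kg (6 rats), 0.69 mg/kg (6 rats), 6.88 mg/kg (6 rats), 68 mg/kg (5 rats) or 680 mg/kg (6 rats). RNA came from the left liver lobe 1 day after the last gavage and was hybridised to 1 expression array per sample, 35 in all. All groups shared the strain, the sex and the corn oil. The labels number the samples of a group as replicates, and each sample was taken to be 1 rat. They do not say how rats were housed or bred, so p-values measure the spread between these samples only.

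In liver, growth hormone binds its receptor, the kinase JAK2 phosphorylates STAT5, and STAT5 enters the nucleus and binds DNA at a short palindrome. Male rats release the hormone in pulses and females more evenly, and many liver genes differ between the sexes as a result. Socs2, Cish and Socs3 encode SH2 proteins that dampen the signal that induces them. Igf1 encodes the circulating growth factor and Igfals the acid-labile subunit that keeps it in the blood. Onecut1, also called HNF6, is a hepatocyte factor that growth hormone induces in rat liver, and Bcl6 is a repressor known in mouse liver to occupy sites that STAT5 also binds.

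The STAT5 palindrome is written TTCNNNGAA, which reads the same on both strands. RefSeq's GRCr8 promoter table held 6 of the 8 genes, namely Ghr, Cish, Socs3, Igf1, Igfals and Bcl6. The 250 bases before the start it lists for each were searched. For Cish and Bcl6 this start is the first base of the annotated gene. For Ghr, Socs3, Igf1 and Igfals it lies inside the annotated gene, so the bases before the outermost start were not searched. The sequences of Cish, which held matches, and of Bcl6, which like Ghr, Socs3, Igf1 and Igfals held none, are shown. Whether the motif bears on the levels of these genes in the rats was not tested. Cish, on the plus strand at chr8:116850719-116850968, held 4 matches, in capitals below, and Bcl6, on the plus strand at chr11:90358503-90358752, held 0.
Cish: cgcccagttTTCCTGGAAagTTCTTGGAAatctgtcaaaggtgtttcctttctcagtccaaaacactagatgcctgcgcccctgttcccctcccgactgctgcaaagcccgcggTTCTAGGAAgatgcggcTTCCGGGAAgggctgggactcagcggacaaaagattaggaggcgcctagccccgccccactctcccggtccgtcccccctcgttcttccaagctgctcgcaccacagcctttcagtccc
Bcl6: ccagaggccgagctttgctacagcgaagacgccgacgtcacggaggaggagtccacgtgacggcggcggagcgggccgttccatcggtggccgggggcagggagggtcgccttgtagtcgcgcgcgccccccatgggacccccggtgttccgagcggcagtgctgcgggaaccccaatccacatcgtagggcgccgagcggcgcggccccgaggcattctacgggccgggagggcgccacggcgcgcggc

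The Cish matches began 241, 230, 136 and 119 bases before the start. They read TTCCTGGAA, TTCTTGGAA, TTCTAGGAA and TTCCGGGAA. Of 33469 rat promoters in windows of the same length, 7.67% held at least 1 match, 0.418% held at least 2, and only Cish and LOC120095689 held 4. The searched windows of Ghr, Socs3, Igf1, Igfals and Bcl6 held neither this motif nor the wider TTCNNNNGAA, which 6.25% of promoters held. A match is a stretch of letters and not a measured binding site, and its absence from this window says nothing of sites elsewhere.

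Values are log2 units of the deposited RMA table throughout, so a step of 1 is a doubling, and levels are compared only within a probe set. Array medians lay between 4.71 and 4.79, the arrays correlated with each other at 0.991 to 0.996, and 4.71, the lowest array median, is used as a mark for dim signals. Of the hepatocyte marker list, 7 of 8 genes were measured and all 7 lay above this mark. In whole liver, fewer cells of a type and less RNA per cell cannot be told apart.

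The 8 genes differed in how much they varied from rat to rat. The SD of deviations from the dose means was 1.64 for Bcl6, 1.09 for Onecut1, 0.83 for Cish and 0.82 for Socs2, against 0.23 for Igfals, 0.19 for Socs3, 0.09 for Ghr and 0.06 for Igf1. Among the 9685 genes whose mean reached the lowest array median, Bcl6 ranked 2 and Onecut1 ranked 7 by this SD. For comparison, the median SD among genes of similar level was 0.11 for Bcl6 and Onecut1, 0.12 for Socs2, 0.16 for Cish and Socs3, 0.09 for Igfals and 0.08 for Ghr and Igf1. Igfals thus varied less than the first 4 genes in log2 units but more than 93.9% of genes of its level, and only Igf1 lay below the median of its like genes. The plot of spread against level shows Bcl6, Onecut1, Cish and Socs2 above most genes of their level.

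**Figure D1:**
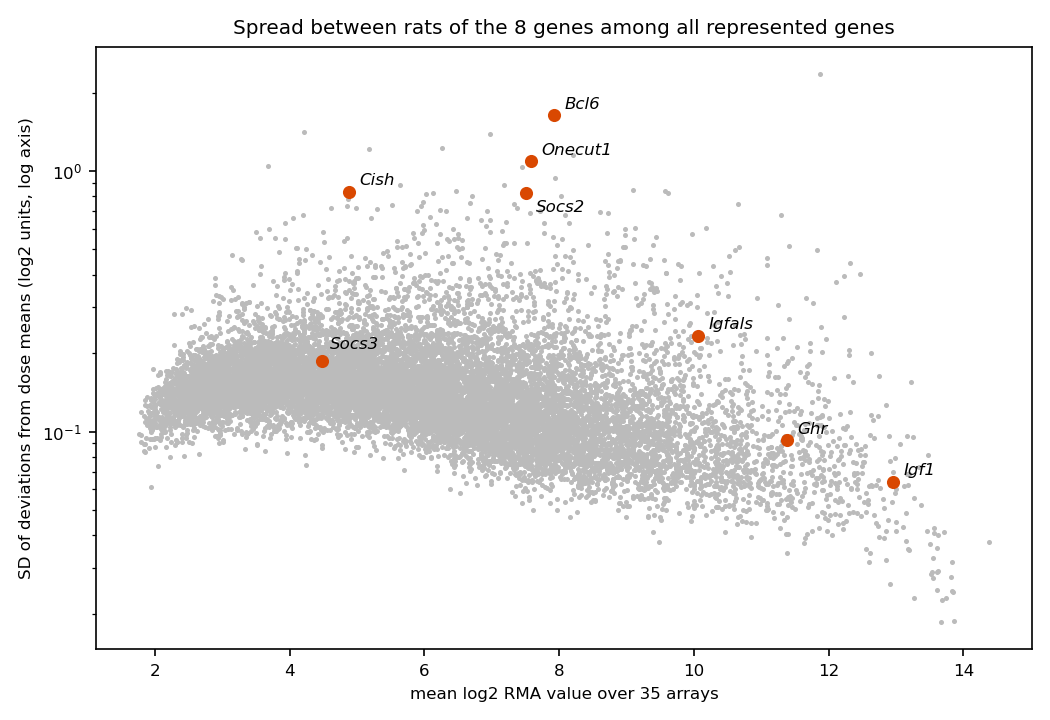
SD between rats against mean level for every represented gene. The x axis is the mean log2 RMA value over 35 arrays, the y axis the SD of deviations from dose means in log2 units on a log scale, grey points are genes and orange points the 8 axis genes. Bcl6, Onecut1, Cish and Socs2 lie between 0.82 and 1.64, and Igf1 is the lowest of the 8 at 0.06.

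The receptor gene Ghr had a 1.33-fold range. Its main probe set read from 11.26 to 11.67 over the 35 rats, and the highest value, at 68 mg/kg in replicate 4, stood apart from the other 4 rats of that group, at 11.27, 11.29, 11.32 and 11.38. Means over vehicle and rising dose were 11.37 ± 0.06, 11.37 ± 0.10, 11.36 ± 0.07, 11.44 ± 0.06, 11.38 ± 0.16 (n = 5) and 11.38 ± 0.07 (SD, n = 6 otherwise). A second Ghr probe set, 1368924_at, did not track the first, with r = 0.02 between their deviations. On that probe set the rats at 6.88 mg/kg read 8.42 to 8.57 and did not overlap the vehicle rats at 8.11 to 8.41, a difference of 0.16 (95% interval -0.03 to 0.34, limma adjusted p = 0.999), while on the main probe set the same groups overlapped. Over all 13 probe sets and 5 doses, every other group overlapped vehicle. How many of all probe sets do not overlap was not counted, so nothing is read from this case.

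Socs2, the inhibitor that limits body growth in mice, varied 7.45-fold over the rats, from 5.94 in vehicle replicate 6 to 8.84 at 0.07 mg/kg in replicate 5. Vehicle rats read from 5.94 to 8.22 with a median of 7.00. The rats at 0.07 mg/kg ran from 6.12 to 8.84 (median 7.15), those at 0.69 mg/kg from 6.29 to 8.51 (median 7.57) and those at 6.88 mg/kg from 7.52 to 8.57 (median 8.07). All 6 rats at 6.88 mg/kg lay above the vehicle mean, and their range overlapped that of vehicle. At 68 mg/kg the 5 rats read 6.74, 8.07, 8.55, 6.11 and 6.77, and at 680 mg/kg they ran from 6.22 to 8.45 (median 8.07), with 5 of 6 above the vehicle mean.

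The Socs2 difference was 0.99 at 6.88 mg/kg (95% interval 0.10 to 1.88), from 8.04 ± 0.45 at this dose against 7.05 ± 0.86 in vehicle rats (SD, n = 6 each). It had an unadjusted p of 0.0305 and a limma adjusted p of 0.999, so it did not pass the threshold of 0.05. The mean at 680 mg/kg was 7.86 ± 0.82 against the same vehicle rats, a difference of 0.81 (-0.08 to 1.70, limma adjusted p = 0.994). The differences at 0.07, 0.69 and 68 mg/kg were 0.24, 0.46 and 0.20. All 5 dose means of Socs2 lay above vehicle, and they share the 1 set of vehicle rats.

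Cish, the STAT5-induced inhibitor whose promoter is printed above, was dim in most rats and bright in a few. Its values ran from 3.69 to 7.17, and 16 of 35 arrays lay above the lowest array median. The highest values were 7.17 and 6.76 at 68 mg/kg (replicates 3 and 2), 6.76 at 6.88 mg/kg (replicate 6), 6.20 at 680 mg/kg (replicate 2) and 5.98 at 0.07 mg/kg (replicate 5). The other 3 rats at 68 mg/kg read 4.38, 4.15 and 4.37, so that group was split between both ends of the range.

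Group medians of Cish stayed within a narrow band of 4.38 at 68 mg/kg to 5.06 at 680 mg/kg, with 4.66 in vehicle rats, 4.52 at 0.07 mg/kg, 4.62 at 0.69 mg/kg and 4.70 at 6.88 mg/kg. The largest difference of means was 0.68 at 68 mg/kg (95% interval -0.26 to 1.63, limma adjusted p = 0.999), from 5.37 ± 1.47 (SD, n = 5) against 4.68 ± 0.58 in vehicle rats (SD, n = 6). Without replicate 3 at 68 mg/kg, the rat at 7.17, that difference was 0.23. Since the vehicle mean lies below the lowest array median, no fold is given. A second Cish probe set, 1378586_at, tracked the first with r = 0.94 and gave a difference of 0.67 at that dose.

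Socs3, an inhibitor induced mainly by STAT3 in liver, was near the dim end in all groups. It read 4.10 to 4.99, with 4 of 35 arrays above the lowest array median, so its level was not shown to be above background. Its highest value was in replicate 3 at 68 mg/kg, the rat that was also highest in Cish. The dose differences ran from -0.01 at 0.69 mg/kg to 0.14 at 68 mg/kg.

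The secreted targets read high on the array's scale. Igf1 read from 12.75 to 13.04, a 1.22-fold range, and its dose differences ran from -0.02 at 0.69 mg/kg to 0.02 at 0.07 and 6.88 mg/kg. The Igf1 mean at 680 mg/kg was 12.95 ± 0.11 against 12.95 ± 0.06 in vehicle rats (SD, n = 6 each), with a 95% interval of 0.943 to 1.07 for the fold. The other Igf1 probe sets, 1388469_at and 1382599_at, had SDs of 0.08 and 0.11.

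Igfals read from 9.61 to 10.53, a 1.89-fold range. Its vehicle rats were the lowest group at 9.91 ± 0.26 (SD, n = 6). The 5 dose means above it were 10.13 ± 0.16 at 0.07 mg/kg, 10.10 ± 0.11 at 0.69 mg/kg, 10.10 ± 0.14 at 6.88 mg/kg, 10.07 ± 0.37 (n = 5) at 68 mg/kg and 10.10 ± 0.29 at 680 mg/kg (SD, n = 6 otherwise). The differences were thus between 0.16 and 0.22, they share the vehicle rats, and all had a limma adjusted p of 0.994 or more. All 6 rats at 0.69 mg/kg and all 6 at 6.88 mg/kg lay above the vehicle mean, though both groups overlapped vehicle.

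Onecut1, the hepatocyte factor HNF6, spanned a 21.1-fold range, from 5.77 at 68 mg/kg (replicate 5) to 10.17 at 680 mg/kg (replicate 2). Vehicle rats ran from 6.13 to 8.46 with a median of 6.52, and 4 of the 6 were at or under 6.69. The rats at 0.07 mg/kg ran from 6.12 to 8.79 (median 6.90), those at 0.69 mg/kg from 6.50 to 8.47 (median 7.51) and those at 6.88 mg/kg from 7.11 to 8.70 (median 7.99). At 68 mg/kg the values were 7.31, 9.28, 9.10, 6.26 and 5.77. The rats at 680 mg/kg ran from 5.92 to 10.17 with a median of 8.37, and 5 of 6 rats lay above the vehicle mean.

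At 680 mg/kg Onecut1 averaged 8.28 ± 1.42, against 6.95 ± 0.93 in vehicle rats (SD, n = 6 each), a difference of 1.33 (95% interval 0.15 to 2.51) or 2.51-fold. Its unadjusted p was 0.0289 and its limma adjusted p 0.994, and the 2 groups overlapped. Replicate 5 at 680 mg/kg, at 5.92, was the low rat of its group, and without it the difference was 1.80, whereas without replicate 2, the rat at 10.17, it was 0.95. The slope over dose rank was 0.23 log2 units per dose step (0.04 to 0.43), with an unadjusted p of 0.0192 and a limma adjusted p of 0.907. A second probe set, 1387760_a_at, tracked the first with r = 0.98 and had a difference of 0.87 at 680 mg/kg and a slope of 0.18 per step (limma adjusted p = 0.921).

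Bcl6, the transcriptional repressor, had the widest range of the 8 genes, 28.9-fold, from 5.35 in vehicle replicate 4 to 10.20 at 68 mg/kg in replicate 5. Its values were spread over the whole range rather than around a centre: 7 rats read between 5 and 6, 5 between 6 and 7, 6 between 7 and 8, 3 between 8 and 9, 11 between 9 and 10, and 3 above 10. The largest gap between neighbouring rats was from 8.64 to 9.14. Every group, vehicle included, held a rat at 6.01 or lower and a rat at 8.64 or higher.

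Vehicle rats had Bcl6 from 5.35 to 9.95 with a median of 8.75. The rats at 0.07 mg/kg ran from 5.81 to 10.10 (median 9.69), with replicate 5 alone at 5.81 and the next rat at 9.21. Those at 0.69 mg/kg ran from 6.01 to 9.64 (median 7.76) and those at 6.88 mg/kg from 5.76 to 8.64 (median 7.55). At 68 mg/kg the values were 9.51, 5.92, 7.32, 10.09 and 10.20, and at 680 mg/kg they ran from 5.54 to 9.97 with a median of 6.42. Of the rats at 680 mg/kg, 5 of 6 lay below the vehicle mean, and replicate 5, the rat with the lowest Socs2 and Onecut1 of its group, was the exception.

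Bcl6 at 680 mg/kg averaged 6.94 ± 1.67, against 8.07 ± 1.84 in vehicle rats (SD, n = 6 each), a difference of -1.13 (95% interval -2.89 to 0.64, limma adjusted p = 0.994). The fold was 0.458 with an interval of 0.135 to 1.56, which holds both a large decrease and an increase. At 0.07 mg/kg the mean was higher than vehicle, 9.07 ± 1.63, a difference of 1.00 (-0.77 to 2.76, limma adjusted p = 1.00). That difference was 0.45 when vehicle replicate 4 was left out and 1.65 when replicate 5 of the dosed rats was. The one at 680 mg/kg was -0.75 when vehicle replicate 6 was left out and -1.73 when replicate 5 of its own group was. The slope over dose rank was -0.23 per step (-0.54 to 0.08). The values-by-dose plot shows how far each group overlaps vehicle.

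**Figure D2:**
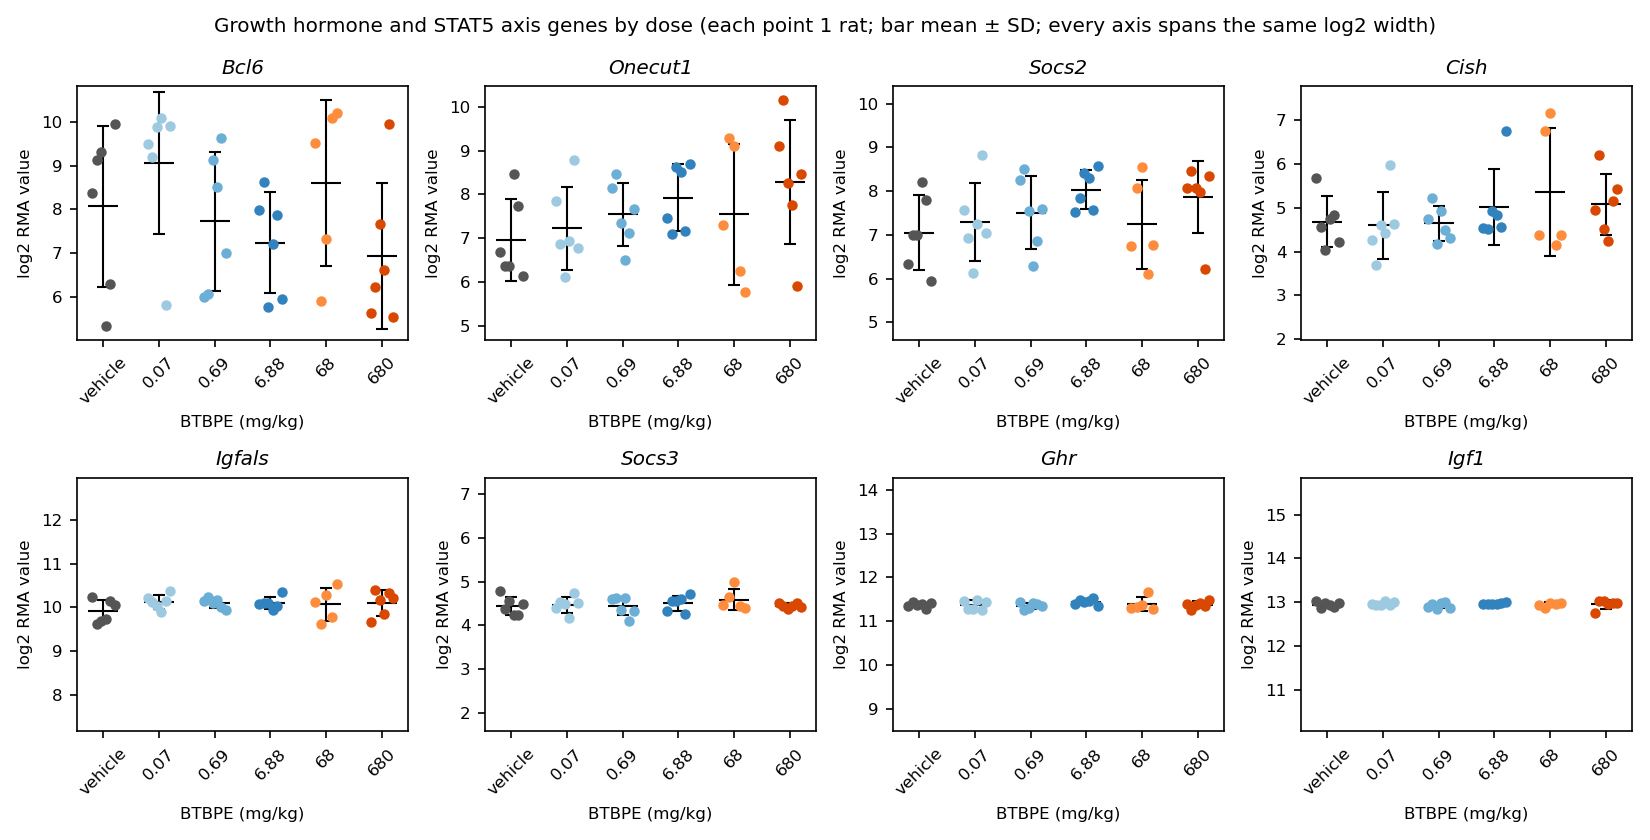
Log2 RMA values of the 8 genes (y axes) in vehicle rats and rats given 5 doses of BTBPE in mg/kg (x axes), with 1 point per rat and the mean ± SD of each group as a black bar. All axes span the same log2 width, so Bcl6, Onecut1, Socs2 and Cish scatter widely while Igf1 stays between 12.75 and 13.04, and every dose group overlaps vehicle.

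By limma with Benjamini-Hochberg adjustment, 0 of the 13 probe sets of these genes passed 0.05 at any dose, for the trend or for a difference among the 6 groups, and neither did any of the 31042 probe sets (0% called in every comparison). At an unadjusted p under 0.05 the genes held 0 of 13 probe sets at 0.07 mg/kg and 0 of 13 at 0.69 mg/kg, where 3.64% and 3.16% of all probe sets passed. They held 1 of 13 at 6.88 mg/kg (Socs2), 0 at 68 mg/kg and 1 at 680 mg/kg (Onecut1), where 4.63%, 3.88% and 4.95% passed. For the trend it was 2 of 13, both of Onecut1, beside 5.14% of all probe sets, and for the F test 0 of 13 beside 3.85%. An unmoderated analysis of variance also called 0 probe sets. Both trend probe sets are of 1 gene and correlate at 0.98, so they are not separate findings. The adjusted p of the 13 probe sets was 0.907 or more in every comparison.

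Ordered by mean, Onecut1 was highest at 680 mg/kg, then at 6.88, 68, 0.69 and 0.07 mg/kg, and lowest in vehicle rats. Bcl6 was highest at 0.07 mg/kg, then at 68 mg/kg, in vehicle rats, at 0.69, at 6.88 and at 680 mg/kg. Socs2 followed the order 6.88, 680, 0.69, 0.07 and 68 mg/kg with vehicle lowest, and Cish the order 68, 680 and 6.88 mg/kg, vehicle, 0.69 and 0.07 mg/kg. Neighbours in these orders differed by at most 0.54 for Bcl6, 0.38 for Onecut1, 0.35 for Socs2 and 0.34 for Cish, which is less than each gene's SD between rats. The highest mean exceeded the lowest by 2.12 for Bcl6, 1.33 for Onecut1 and 0.99 for Socs2, more than that SD, and by 0.76 for Cish, less than it. That SD describes single rats and is not the error of a difference of means, so neither comparison tests dose. The F test over the 6 groups passed for none of them (limma adjusted p = 1.00).

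The rats of a dose group differed from each other in a shared pattern. Livers with more Bcl6 than their group's mean tended to have less Onecut1, less Socs2 and less Cish, with exceptions such as replicate 1 at 0.07 mg/kg, which was above its group's mean in Bcl6, Onecut1 and Socs2. Pearson's r of deviations from dose means over the 35 rats was -0.86 for Onecut1 and Bcl6 (Spearman's coefficient -0.83), -0.85 for Socs2 and Bcl6 (Spearman's -0.83) and -0.59 for Cish and Bcl6 (Spearman's -0.58). Socs2 and Onecut1 went together, with r = 0.89 and a Spearman's coefficient of 0.89, and Cish went with Onecut1 (0.63) and with Socs2 (0.52). The 35 arrays, each taken as 1 rat, were normalised together, and no p is given because these genes were chosen with this pattern known.

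**Figure D3:**
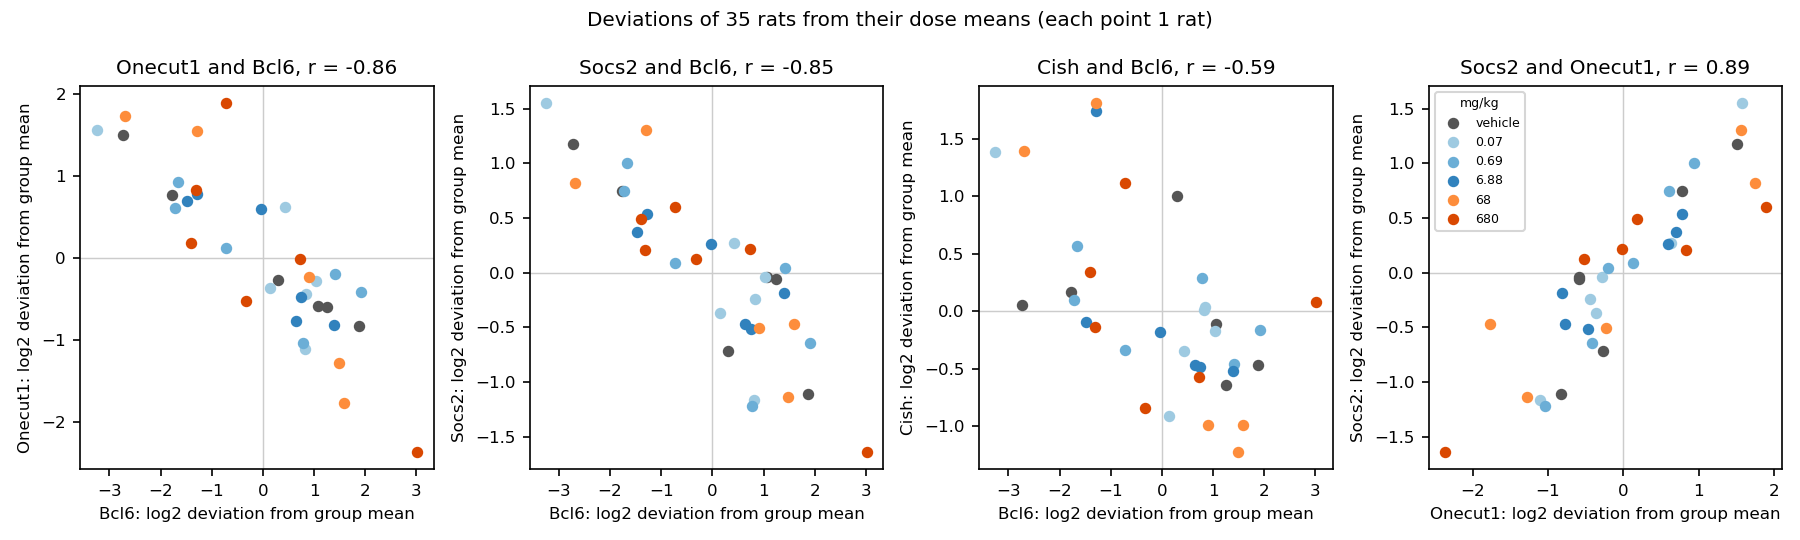
Each point is 1 rat, coloured by dose in mg/kg, with the deviation from its group's mean in log2 units on both axes. Onecut1 and Socs2 run downward against Bcl6 (r = -0.86 and -0.85), Cish less tightly (-0.59), and Socs2 runs upward with Onecut1 (0.89).

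Single rats show the pattern in plain values. Vehicle replicate 4 had Bcl6 at 5.35, Onecut1 at 8.46 and Socs2 at 8.22, whereas vehicle replicate 6 had Bcl6 at 9.95, Onecut1 at 6.13 and Socs2 at 5.94. At 68 mg/kg, replicate 2 had Bcl6 at 5.92 and Onecut1 at 9.28, and replicate 5 had Bcl6 at 10.20 and Onecut1 at 5.77. At 680 mg/kg, replicate 1 had Bcl6 at 5.63, Onecut1 at 9.11 and Socs2 at 8.07, and replicate 5 had Bcl6 at 9.97, Onecut1 at 5.92 and Socs2 at 6.22. These opposite pairs occurred in vehicle rats as well as in dosed ones.

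The signs of the tightest pairs were the same in all 6 groups. Within groups, r of Onecut1 and Bcl6 ran from -0.99 to -0.81, that of Socs2 and Bcl6 from -0.90 to -0.78, and that of Socs2 and Onecut1 from 0.88 to 0.98. In the vehicle rats alone these 3 values were -0.99, -0.88 and 0.88 over 6 rats. Cish and Bcl6 were negative in 6 of 6 groups but ranged from -0.93 at 68 mg/kg to -0.17 at 680 mg/kg. Cish was positive with Socs2 and with Onecut1 in 6 of 6 groups, but unevenly. In vehicle rats these r were 0.01 and 0.29, and at 68 mg/kg 0.98 and 0.93. Without replicate 3 at 68 mg/kg, r of Socs2 and Cish over the remaining rats was 0.45. Without the 2 rats farthest from the median of the first-named gene, r was -0.88 for Onecut1 and Bcl6, -0.84 for Socs2 and Bcl6, 0.88 for Socs2 and Onecut1, and -0.58 for Cish and Bcl6.

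Of the 28 pairs among the 8 genes, 8 had an r of at least 0.5 in size, 5 positive and 3 negative, and 20 lay between. Besides the 6 pairs of Bcl6, Onecut1, Socs2 and Cish, these were Cish with Socs3 (0.61) and Igf1 with Igfals (0.54). Cish lay above the lowest array median on 16 of 35 arrays and Socs3 on 4, so their r rests largely on dim signals. Within groups it ran from 0.13 at 680 mg/kg to 0.90 at 68 mg/kg. Without the 2 farthest rats, 3 of the 8 were below 0.5, namely Socs2 with Cish (0.47), Cish with Socs3 (0.45) and Igf1 with Igfals (0.43). With the other Igf1 probe sets, 1388469_at and 1382599_at, r of Igf1 and Igfals was 0.43 and 0.38. The first component of the 8 genes held 45.0% of their standardised variance, with loadings of 0.48 for Bcl6, -0.48 for Onecut1, -0.47 for Socs2 and -0.41 for Cish. The second held 23.4% and loaded on Igfals (-0.65) and Igf1 (-0.52).

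**Figure D4:**
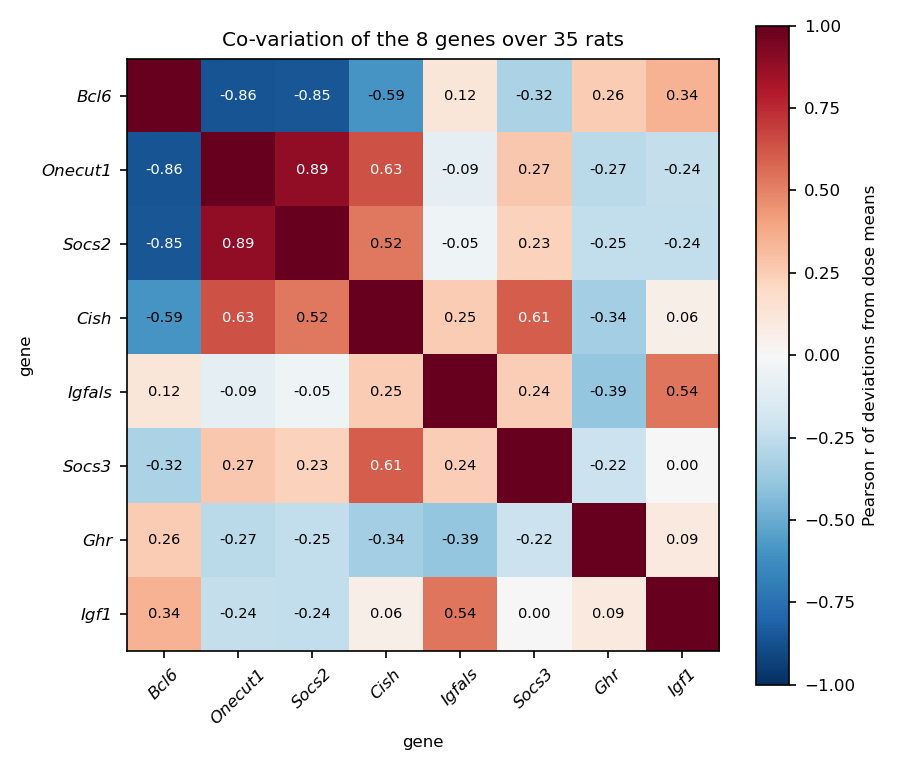
Pearson's r of deviations from dose means over 35 rats for each pair of the 8 genes, with blue negative and red positive. Bcl6 is negative with Onecut1, Socs2 and Cish (-0.86, -0.85 and -0.59), which are positive with each other, and Igf1 pairs with Igfals (0.54).

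The receptor and the secreted targets had smaller r with those 4 genes. Ghr had r between -0.39 (Igfals) and 0.26 (Bcl6) with the other 7 genes. Igf1 had r = 0.34 with Bcl6, -0.24 with Socs2 and -0.24 with Onecut1, and Igfals had 0.12, -0.05 and -0.09 with the same 3. With Cish, Igf1 had r = 0.06 and Igfals 0.25. Within groups, r of Igfals and Cish was positive in 5 of 6, from -0.17 at 68 mg/kg to 0.84 at 6.88 mg/kg.

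The same r was computed for all other genes as background to the values that chose these ones, and nothing is read from it. Of 9684 genes with a mean at or above the lowest array median, 4.97% had an r with Bcl6 of at least 0.5 in size and 25 genes (0.258%) reached 0.8. For Onecut1 the share was 5.27% with 27 genes at 0.8, for Socs2 3.81% with 16, and for Cish 1.87% with 4. Onecut1 was the gene with the highest r with Socs2, and Bcl6 ranked 2 from the negative end for both Socs2 and Onecut1.

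The genes whose deviations were most like each of these were the following, by r over 35 rats, 3 from each end. With Bcl6 they were Rin2, a Rab5 exchange factor (0.89), Cyp7a1 (0.87) and Osbpl11, of the oxysterol-binding family (0.82). At the negative end stood Cebpb, a bZIP transcription factor (-0.91), Rtp3 (-0.89) and Ell, a transcription elongation factor (-0.88). Cyp7a1, which catalyses the rate-limiting step from cholesterol to bile acids, ran from 9.39 to 11.71 over the rats and had r = -0.78 with Socs2 and -0.68 with Onecut1.

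With Onecut1 the positive end held Tmx4, a thioredoxin-related membrane protein (0.94), Slc25a30, a mitochondrial carrier (0.93), and Rbm15, an RNA-binding protein (0.91). Its negative end held Rin2 (-0.90), Bcl6 and Abcb9, a lysosomal peptide transporter (-0.82). With Socs2, after Onecut1, came Ahctf1, a nucleoporin (0.89), and Xbp1, a factor of the unfolded protein response (0.88), and the negative end held Rin2 (-0.85), Bcl6 and Osbpl11 (-0.83). All of these kept the same sign in 6 of 6 groups.

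Cish had other neighbours: Foxa2, a hepatocyte forkhead factor (0.88), Rgs3, a regulator of G-protein signalling (0.87), and Net1 (0.82). Its negative end held Depp1 (-0.76), Id4, an inhibitor of bHLH factors (-0.73), and Bambi, a pseudoreceptor of the TGF-beta family (-0.72). Socs3 was nearest to Irf2bpl (0.73), Pdk4, the kinase that restrains pyruvate dehydrogenase (0.66), and Dusp6, a phosphatase of ERK (0.66), and most negative with Bambi (-0.70), Zfp524 (-0.65) and Ttc1 (-0.65). Igfals was nearest to Sdc1 (0.72), Gstp3 (0.68) and Synrg (0.68), with Fv1 (-0.64), Pir (-0.60) and Ada (-0.60) opposite. Igf1 was nearest to Copg2 (0.71), Acadvl (0.70) and Marf1 (0.66), with LOC102546992 (-0.68), Glrx (-0.60) and Lrtm2 (-0.58) opposite, and Ghr to Cd276 (0.76), Reep5 (0.69) and Fabp5 (0.68), with Glyatl2 (-0.71), Reps2 (-0.69) and Cyp2a1 (-0.68) opposite.

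The other genes of growth hormone signalling had r with Bcl6 between -0.42 and 0.40. Of 18 other signalling genes measured, 7 were positive with Bcl6 and 11 negative, with a median r of -0.04 beside 0.03 over all represented genes, and 0 of the 18 reached 0.5 in size, a size that 3.56% of all represented genes reached. Jak2, the receptor's kinase, had r = -0.23 with Bcl6, Stat5a -0.03 and Stat5b 0.23, and their SDs were 0.18, 0.13 and 0.17. Among the other inhibitors Socs5 (-0.38), Socs6 (-0.26) and Socs7 (-0.30) were negative with Bcl6, and Socs1 was at 0.07. The phosphatases Ptpn2 (-0.42) and Ptpn11 (0.40) stood at the 2 ends of the list. Prlr, the prolactin receptor, varied widely (SD 0.75, from 5.41 to 8.15) but not with Bcl6 (-0.03), and had r = 0.56 with Igfals.

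In the IGF system 7 of 13 other genes were positive with Bcl6 and 6 negative, and 0 of 13 reached 0.5 in size. Igfbp1, a binding protein that insulin suppresses, varied from 6.81 to 10.93 and had r = 0.26 with Bcl6 and -0.48 with Cish. Igfbp3, the partner of Igfals in the circulating complex, had r = -0.02 with Igfals. Igfbp4 had the most negative r of this list with Socs2, -0.57.

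Of 12 other genes listed as factors that regulate growth hormone targets, 4 reached 0.5 in size with Bcl6, beside 3.56% of all represented genes. They were Cebpb (-0.91), Hnf4a, the nuclear receptor of hepatocyte identity (0.60), Foxa2 (-0.58) and Cebpa (-0.57). The list was chosen with earlier results of these data known, so nothing is read from this share. Whether each listed factor acts with STAT5 was not tested. Cebpb read from 9.78 to 11.09 and went with Onecut1 (0.86) and Socs2 (0.83). Onecut2, the close relative of Onecut1, did not: its r was 0.36 with Onecut1 and 0.04 with Bcl6. Nr0b2, also called SHP, a repressor of Cyp7a1, varied with an SD of 0.63 and had r = -0.02 with Bcl6.

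By dose, 0 of the other 18 signalling genes, 13 IGF genes and 12 factors passed in either direction at any dose, for the trend or for the F test. At 680 mg/kg the median difference was 0.05 for the 22 signalling genes, -0.005 for the 15 IGF genes and 0.09 for the 14 factors, members included, beside 0.002 over all represented genes. Igfbp1 had a difference of -0.97 at 680 mg/kg (limma adjusted p = 0.994), Foxa1 a slope of 0.05 per dose step (limma adjusted p = 0.900) and Nr0b2 a slope of -0.14 (limma adjusted p = 0.900). Foxa2 had a slope of 0.09 per step (limma adjusted p = 0.933).

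Genes that growth hormone sets differently in male and female rats had r with Bcl6 between -0.43 and 0.47. Of 18 genes listed as male-predominant 11 were positive with Bcl6 and 7 negative. Of 16 listed as female-predominant 8 were positive and 8 negative, with 0 of either list at 0.5 in size. Some of the female-listed genes had means below the lowest array median, the lowest at 2.00, so their r says little. Over all represented genes 54.3% were positive and 3.56% reached that size, so these counts do not set the lists apart. All rats were male, so the listing by sex could not be checked here. The placing of Cyp2c7 in the male list and of Sult1e1 and Hsd3b5 in the female list is doubtful. These 3 genes had r with Bcl6 of 0.05, 0.04 and 0.25. Dhrs7 (0.47) and Slco1a1, a bile salt and anion uptake transporter (0.30), were the highest of the male list, and Cyp3a2 (-0.40) and Rup2 (-0.30) the lowest. In the female list Cyp2c12, a steroid hydroxylase of female liver, was highest (0.35) and Sult2a6, a sulfotransferase, lowest (-0.43). The P450 genes of these lists have close relatives on the array, so a probe set can share signal between them.

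Other lists differed in how they went with Bcl6. Acute phase genes, targets of STAT3 in inflammation, were split 10 positive and 13 negative, and Il6r, the interleukin 6 receptor, was the only 1 of 23 at 0.5 in size (0.54). Of 17 fasting genes 3 reached that size: Pdk4 (-0.65), Foxo3, a factor held out of the nucleus by insulin signalling (-0.63), and Pc, pyruvate carboxylase (0.52). In all, 9 of 200 list genes that are not among the 8 reached 0.5 in size with Bcl6, which is near the 3.56% over all represented genes. The plot of list correlations names these 9.

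**Figure D5:**
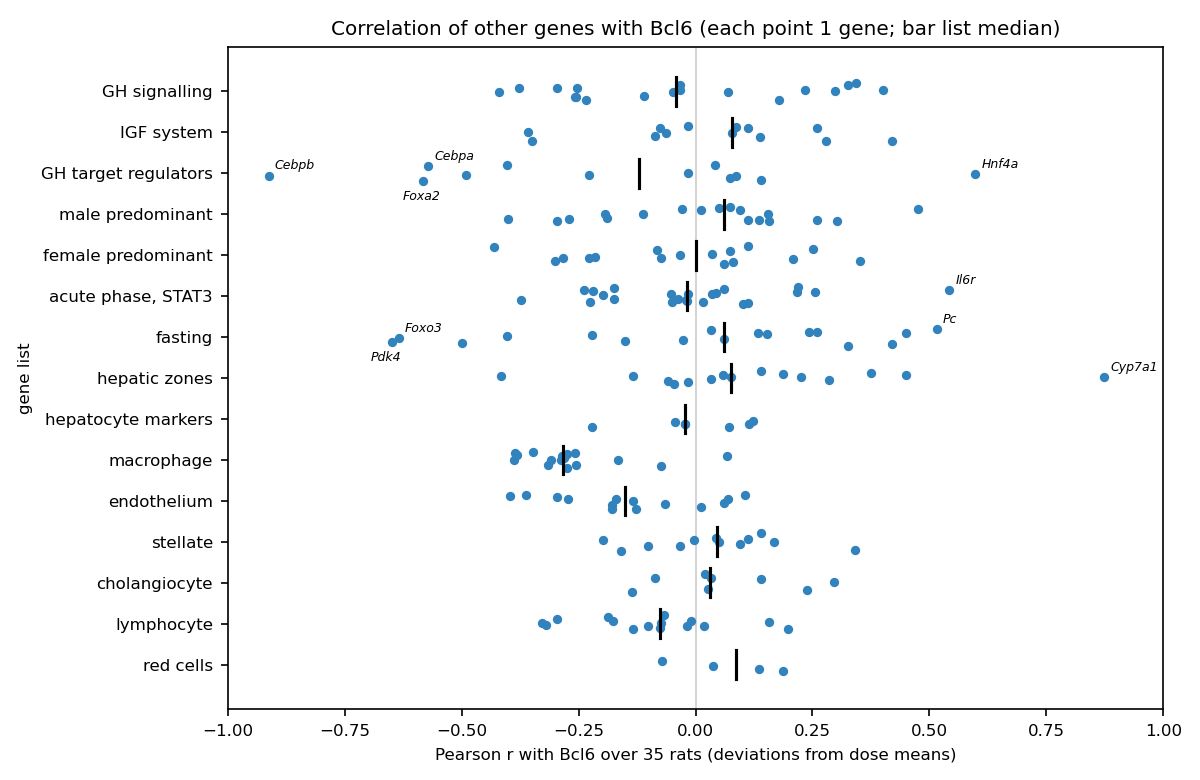
Pearson's r with Bcl6 over 35 rats (x axis) for each gene of 15 lists (y axis), with 1 point per gene, the list median as a bar and names for genes of at least 0.5 in size. Most lists centre near 0, the macrophage list lies to the left at a median of -0.28, and Cebpb (-0.91) and Cyp7a1 (0.87) stand at the ends.

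Macrophage markers were mostly negative with Bcl6, each with a small r. Of 16 measured markers, all at or above the lowest array median, 15 were negative with Bcl6, and r ran from -0.39 for C1qa to 0.07 for Lyz2, beside 54.3% positive over all represented genes. With Onecut1, Socs2 and Cish 14 of 16 were positive, with Socs3 15 of 16 (median 0.40), and with Igf1 1 of 16 (median -0.20). Among endothelial and lymphocyte markers, 11 of 14 and 12 of 15 were positive with Socs3, and 4 of 14 and 3 of 15 with Igf1. The macrophage markers come from 1 cell type and are not independent of each other. The mean of the list had r = -0.31 with Bcl6, 0.23 with Onecut1, 0.18 with Socs2 and 0.15 with Cish. It ran from 7.82 to 8.41 in vehicle rats, 7.78 to 8.35 at 0.07 mg/kg, 7.53 to 8.57 at 0.69, 7.74 to 8.58 at 6.88, 7.51 to 8.31 at 68 and 7.88 to 8.33 at 680 mg/kg. By dose, 1, 1, 2, 1 and 1 of the 16 markers had a higher mean than vehicle at 0.07, 0.69, 6.88, 68 and 680 mg/kg, with median differences of -0.19, -0.08, -0.09, -0.31 and -0.10, beside 46.7% to 51.7% of all represented genes, and 0 passed the test. All doses share the vehicle rats, as do the dose means of Socs2, Onecut1 and Igfals, which lay above vehicle at every dose. The mean of the endothelial list had r = -0.28 with Bcl6, and those of the hepatocyte, stellate, cholangiocyte, lymphocyte and red cell lists lay between -0.19 and 0.11. Of endothelial and lymphocyte markers, 10 of 14 and 12 of 15 were negative with Bcl6. For hepatocyte, stellate, cholangiocyte and red cell markers it was 4 of 7, 5 of 12, 2 of 8 and 1 of 4. Of the 8 cholangiocyte markers, 4 reached the lowest array median. By rising dose, 1, 1, 2, 2 and 9 of 14 endothelial markers had a higher mean than vehicle. For lymphocyte markers it was 3, 5, 4, 4 and 3 of 15, and 0 of either list passed. Only 6 of the 15 reached the lowest array median. The part of cell types in the Bcl6 pattern and in the dose means of Socs2, Onecut1 and Igfals was not tested.

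RNA quality was read from the difference between the 3 prime and 5 prime probe sets of Actb, which ran from 1.02 to 1.37 over the arrays. It had r = 0.46 with Bcl6, 0.41 with Igf1, -0.38 with Socs2 and -0.28 with Onecut1. With deviations adjusted for it, r was -0.86 for Onecut1 and Bcl6, -0.83 for Socs2 and Bcl6, 0.88 for Socs2 and Onecut1 and -0.61 for Cish and Bcl6, as large as without the adjustment to within 0.03. The r of Igf1 and Bcl6 was 0.19 after adjustment, against 0.34 before it. Group means of the Actb difference ran from 1.11 at 68 mg/kg to 1.23 at 6.88 mg/kg, with 1.12 in vehicle rats. With it as a covariate, the differences at 6.88 mg/kg were -1.85 for Bcl6, 1.41 for Socs2 and 1.39 for Onecut1. Without it they were -0.83, 0.99 and 0.97. That of Igf1 was -0.01 with it and 0.02 without it, and 0 probe sets passed either way.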

How the data were processed

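Per the labels' protocols, liver RNA passing an integrity cut of 7 was hybridised to Affymetrix 3 prime arrays. The table the authors deposited holds 1 expression value per probe set and array, on a log2 scale. Per the submitters' processing notes they came from RMA and affy, with versions not given there, and log2 is assumed because it is RMA's usual scale. Quantile normalisation in RMA would reduce a shift shared by most transcripts. An array signal has no read depth, so the number of arrays limits precision.

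The 57 control probe sets were left out of 31099. Names came from the platform annotation (20826 probe sets with 1 symbol, 436 with several, 9780 with none), and 20758 of the first kind matched RefSeq, GRCr8. All 35 arrays entered 1 fit by limma 3.58.1 (R 4.3.3) in which each group had its own mean, with a slope over dose rank, a moderated F test and Benjamini-Hochberg adjustment at 0.05. limma stood in for R/maanova, which the series design names. Intervals are 95% and not adjusted over genes. The fit was also run on simulated data with independent normal noise per probe set, which these correlated genes do not have. Nothing is read from that run. Correlations are of deviations from group means.

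The 8 genes, the 15 gene lists and the tests were chosen with earlier results of these data known. Named genes are the 8, genes of the signalling, IGF and factor lists at or above the lowest array median, the 2 highest and 2 lowest by r with Bcl6 in each other list, and the 3 nearest at each end for each of the 8. LOC120095689 was named after its value was seen, and Cyp2c7, Sult1e1 and Hsd3b5 because their listing by sex is doubtful. Alternatives covered the filter on dim probe sets, the normalisation and centring, a block for replicate number, limma's prior and weights, an ordinary analysis of variance, the probe set per gene, fits of 1 dose with vehicle, Actb as a covariate, log10 of dose, rank correlation, and leaving out each array.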

Additional observations from a re-analysis of the deposited data

Results flagged for a closer look

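In 5 of 48 sets of 1 gene in 1 group, a rat stood far from the others of its group (Dixon's test at 95%), and chance gives about 1 in 20. The genes were chosen with their spread known and correlate with each other, so nothing is read from this count. Bcl6 read 5.81 in replicate 5 at 0.07 mg/kg, where the nearest other rat read 9.21. Socs2 read 6.22 in replicate 5 at 680 mg/kg, with the nearest at 7.98, in the same rat whose Bcl6 was 9.97 and Onecut1 5.92. Cish read 6.76 in replicate 6 at 6.88 mg/kg, with the nearest at 4.93. Ghr read 11.67 in replicate 4 at 68 mg/kg, with the nearest at 11.38. Igf1 read 12.75 in replicate 1 at 680 mg/kg, with the nearest at 12.97.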

How the results depend on the processing

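With every alternative run, limma called 0 probe sets at each dose, for the trend and for the F test, single arrays left out included. The lowest adjusted p of the 8 genes was 0.682 at 680 mg/kg and 0.691 for the trend, both without replicate 5 at 680 mg/kg, and 0.762 at 6.88 mg/kg. The pairs of at least 0.5 in size numbered 8, and 5 without the 2 arrays farthest from the median of the first gene, and 6 to 8 with single arrays left out. The list genes of that size with Bcl6 numbered 9, and 6 to 12 with single arrays left out. The genes in the widest-varying set numbered 4 throughout. With the second Ghr probe set, r of Ghr was 0.04 with Cish, 0.20 with Socs3 and 0.28 with Igfals, in place of -0.34, -0.22 and -0.39. Dose differences of Ghr, Socs3, Igf1 and, at the 2 lowest doses, Cish took the other sign under some settings. So did Socs2 and Onecut1 at 0.07 mg/kg without replicate 5 there (-0.07 and -0.04), Bcl6 at 0.69 mg/kg (up to 0.03, without vehicle replicate 6), Cish at 6.88 mg/kg without replicate 6 (-0.009), and at 68 mg/kg Socs2 (down to -0.13, without replicate 3) and Bcl6 without vehicle replicate 4 (-0.008). None had passed the threshold.

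Replicate numbers recur across groups, but same-numbered rats did not deviate together (median correlation -0.03 over 85 pairs, from -0.32 to 0.27, and 3 of 35 arrays nearest to their own number). With the replicate block limma called 0 probe sets, the pairs numbered 8 and the list genes 11.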
